A study of Mus musculus with 6 samples.

Results

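The 10 genes described here are the core of the adipogenic differentiation programme: the transcription factors Pparg, Cebpa, Cebpb and Cebpd, the lipid-handling genes Fabp4, Lpl, Plin2 and Cd36, the secreted product Adipoq and the leptin receptor Lepr. They were taken by gene symbol, and all 10 were found among the 23420 genes of the count table. The libraries came from mesenchymal stromal cells (MSCs) grown out of the bone marrow of female C57BL/6 mice, in AMEM medium with fetal bovine serum and antibiotics. Both groups were transduced with the AP2 retroviral construct, which carries eGFP as a marker. Cells labelled Ctl MSC (3 libraries) received its empty backbone, and cells labelled MSC-TPr (3 libraries) received the version with the thymoproteasome subunits β1i, β2i and β5t, the catalytic subunits of the proteasome form found in thymic epithelium. PolyA RNA was sequenced, and the comparison asks what thymoproteasome expression does to the transcriptome of these cells. The labels do not say whether the libraries of a group came from separate cultures or animals, or whether animals were pooled, so the p-values below measure the spread between these libraries only, which may be technical.

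Marrow stromal cells can become adipocytes, osteoblasts or cartilage cells. In the textbook sequence, Cebpb and Cebpd are induced first by hormonal signals, and they switch on Pparg and Cebpa, which then maintain each other and turn on the genes of lipid uptake and storage. Marrow cells that carry the leptin receptor are a main source of marrow adipocytes, and many of them express Pparg and Lpl before any lipid is stored.

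Because the factors are known to act on each other's promoters, the bases before the RefSeq starts of Pparg, Cebpa and Cebpb are shown (build GRCm38.p6, which is mm10). RefSeq windows were matched for 7 of the 10 members, namely Pparg, Cebpa, Cebpb, Plin2, Lepr, Cd36 and Adipoq. Pparg has several starts. The window of one, on the plus strand at chr6:115421816-115422065, and the window of another further upstream, at chr6:115362099-115362291, are given, the latter without its last bases, which lie inside an annotated exon. The Cebpa window lies at chr7:35119043-35119292 and the Cebpb window at chr2:167688665-167688914, both on the plus strand. Capitals mark matches to any of 7 short motifs, searched on both strands: TTGCAA and TTGCNNAA (2 forms of a C/EBP core), TGACG (a CREB-type core), TATAAA (the TATA box), CCAAT (the CCAAT box), GGGCGG (a GC box) and AGGTCANAGGTCA (the direct repeat bound by PPARγ with RXR).

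Pparg, start at 115422066: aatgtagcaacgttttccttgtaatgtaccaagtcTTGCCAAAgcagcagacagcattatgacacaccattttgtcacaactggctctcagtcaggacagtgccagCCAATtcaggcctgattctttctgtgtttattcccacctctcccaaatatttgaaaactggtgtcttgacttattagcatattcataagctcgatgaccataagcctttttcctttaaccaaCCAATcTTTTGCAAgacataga
Pparg, start at 115362349: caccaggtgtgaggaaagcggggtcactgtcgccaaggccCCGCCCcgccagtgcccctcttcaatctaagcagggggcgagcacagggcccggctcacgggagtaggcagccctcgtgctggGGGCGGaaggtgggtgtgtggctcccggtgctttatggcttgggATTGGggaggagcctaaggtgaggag
Cebpa, start at 35119293: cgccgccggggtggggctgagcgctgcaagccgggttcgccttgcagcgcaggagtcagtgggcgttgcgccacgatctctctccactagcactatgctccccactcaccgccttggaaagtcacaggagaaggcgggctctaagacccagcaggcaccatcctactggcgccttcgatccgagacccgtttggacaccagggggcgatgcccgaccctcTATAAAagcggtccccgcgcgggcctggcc
Cebpb, start at 167688915: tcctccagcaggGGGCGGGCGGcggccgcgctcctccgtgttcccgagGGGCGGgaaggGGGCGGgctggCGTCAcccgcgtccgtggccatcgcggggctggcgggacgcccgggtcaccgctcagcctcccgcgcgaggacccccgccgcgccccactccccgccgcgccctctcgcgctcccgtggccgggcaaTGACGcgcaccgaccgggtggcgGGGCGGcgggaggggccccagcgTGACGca

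The window of the Pparg start at 115422066 held 2 matches to TTGCNNAA, one of which overlaps a match to TTGCAA, and 2 to CCAAT. Of the 32851 RefSeq promoter windows of mouse genes, 9.56% held TTGCNNAA, 5.34% held TTGCAA and 33.8% held CCAAT. The other Pparg window had 2 GC boxes and 1 CCAAT in its 193 bases. The Cebpa window had 1 TATAAA, which 12.4% of all windows held. The Cebpb window had 3 matches to TGACG and 5 to GGGCGG, 2 of them overlapping, against 17.8% and 32.7% of all windows with at least 1 match. It was also 81.6% G or C, with 99.3% of windows lower. The PPAR repeat was in 0.0335% of all windows and in no member's window. These are letter matches only, and reads were counted per gene, so the starts of Pparg cannot be told apart in the values below.

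Each library had 16158756 to 22158887 reads counted on genes. At this depth 3 reads, the smallest number taken here as a signal, correspond to 0.139 to 0.181 counts per 1000000 reads (CPM), with library sizes scaled by the TMM method of edgeR. The transduced genes did not separate the labels. Psmb11, which encodes β5t, had 2, 4 and 2 reads across Ctl MSC 1, 2 and 3, then 4, 6 and 1 across MSC-TPr 1, 2 and 3. Psmb9, for β1i, had 56, 15 and 15 reads against 10, 21 and 26, and Psmb10, for β2i, had 460, 165 and 152 against 162, 293 and 328. Every direction given below is therefore a direction between libraries labelled MSC-TPr and libraries labelled Ctl MSC.

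Both libraries numbered 1 stood apart from their groups. The mean level of 15 cell division genes was 6.60, 3.27 and 3.25 log2 CPM across Ctl MSC 1, 2 and 3, then 3.24, 6.48 and 6.47 across MSC-TPr 1, 2 and 3, so Ctl MSC 1 lay with MSC-TPr 2 and 3, and MSC-TPr 1 with Ctl MSC 2 and 3. The first principal component, with 58.5% of the variance, split the libraries in the same way, and the second, with 28.3%, ordered them by label. Psmb9 and Psmb10, of the transduced genes, were also higher in Ctl MSC 1, MSC-TPr 2 and MSC-TPr 3 than in the other libraries. Whether the libraries numbered 1 carry the right labels was not tested. Ctl MSC 2 and 3 were the most alike of any pair within a group (mean chi-square 4.97 per gene over 12001 genes, where 1 is sampling noise, against 52.6 for MSC-TPr 2 and 3), and they were kept as 2 samples. The members were therefore compared in all 6 libraries, in the 4 libraries numbered 2 and 3, and in all 6 with the division level as a covariate. In the 4 libraries the division level and the label cannot be told apart, and the fit with the covariate rests on the libraries numbered 1 to separate them.

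Of 10 genes for products of mature adipocytes, 7 had at most 3 reads in every library, Lep and Retn had 0 throughout, and the summed level of the list was 2.48 to 3.31 CPM in Ctl MSC and 1.48 to 3.10 in MSC-TPr. Only 2 of the list, Lipe and Adrb3, were tested, and they went opposite ways. Lipe, hormone-sensitive lipase, had 7 to 52 reads and a log2 fold change of -1.17 (edgeR adjusted p 0.505). It was called lower in the 4 libraries (-2.68, edgeR adjusted p 0.00223) and not with the covariate (-0.95, edgeR adjusted p 0.167). Adrb3, an adrenergic receptor of fat cells, was scarce but higher in every library labelled MSC-TPr, with 4, 0 and 2 reads against 10, 17 and 22 (log2 2.84, edgeR adjusted p 0.205), and it was called with the covariate (2.53, edgeR adjusted p 0.0366). Of 10 stromal markers, 9 passed the filter on low counts, while Thy1, the gene of CD90, had 0 or 1 read. The paper reports CD90 on Ctl MSCs by flow cytometry, which measures protein and not RNA. Nt5e, the stromal marker CD73, was lower in every library labelled MSC-TPr, at 11.4, 20.2 and 17.4 CPM against 2.66, 4.20 and 5.24 CPM (log2 -2.02, edgeR adjusted p 0.079, DESeq2 adjusted p 2.027e-05). It was also called in the 4 libraries (-1.99) and with the covariate (-1.98, edgeR adjusted p 0.0127). Ly6a was called with the covariate (-0.88, edgeR adjusted p 0.014) but was at 0.37 in the 4 libraries. The 9 stromal markers tested had a median of 0.24 over 6 libraries. In the 4 libraries 5 were called higher and 1 lower, beside 40.0% of all genes. With the covariate 0 were called higher and 2 lower, beside 12.1%. Adrb3, Nt5e and Ly6a are singled out after their values were seen, and their part in the results below was not tested. Of 9 macrophage markers, Ptprc, Itgam and Marco had at most 3 reads, while Cd68 (17 to 256 reads) was higher in the libraries with the lower division level and Cd14 (59 to 238 reads) in those with the higher one, with list sums of 11.4 to 14.5 CPM in Ctl MSC and 13.3 to 17.8 in MSC-TPr. Of 10 endothelial markers, Cdh5, Tie1, Emcn, Cldn5 and Robo4 had at most 3 reads, with sums of 1.33 to 6.41 and 2.55 to 24.8 CPM, the highest in MSC-TPr 1, where Vwf had 386 reads. In bulk RNA, fewer cells of a type and less RNA per cell cannot be told apart.

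Of the 10 members, 8 passed the filter and were tested. None of the 8 was called between the labels in all 6 libraries by edgeR's quasi-likelihood test, where a call needs a Benjamini-Hochberg adjusted p under 0.05 over all 11974 genes tested and a change of 0.5 or more on the log2 scale, up or down. DESeq2 also called 0, with its lowest adjusted p, 0.0585, for Cebpd. At these thresholds edgeR called 0.426% of all genes, and DESeq2 called 244 genes higher and 439 lower of the 16807 with at least 1 count. At an unadjusted p under 0.05, 2 members passed (15.0% of all genes), and the same 2 had groups that did not overlap (22.6% of all genes): Cebpd, lower in every library labelled MSC-TPr, and Lpl, higher in every one.

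**Figure D1:**
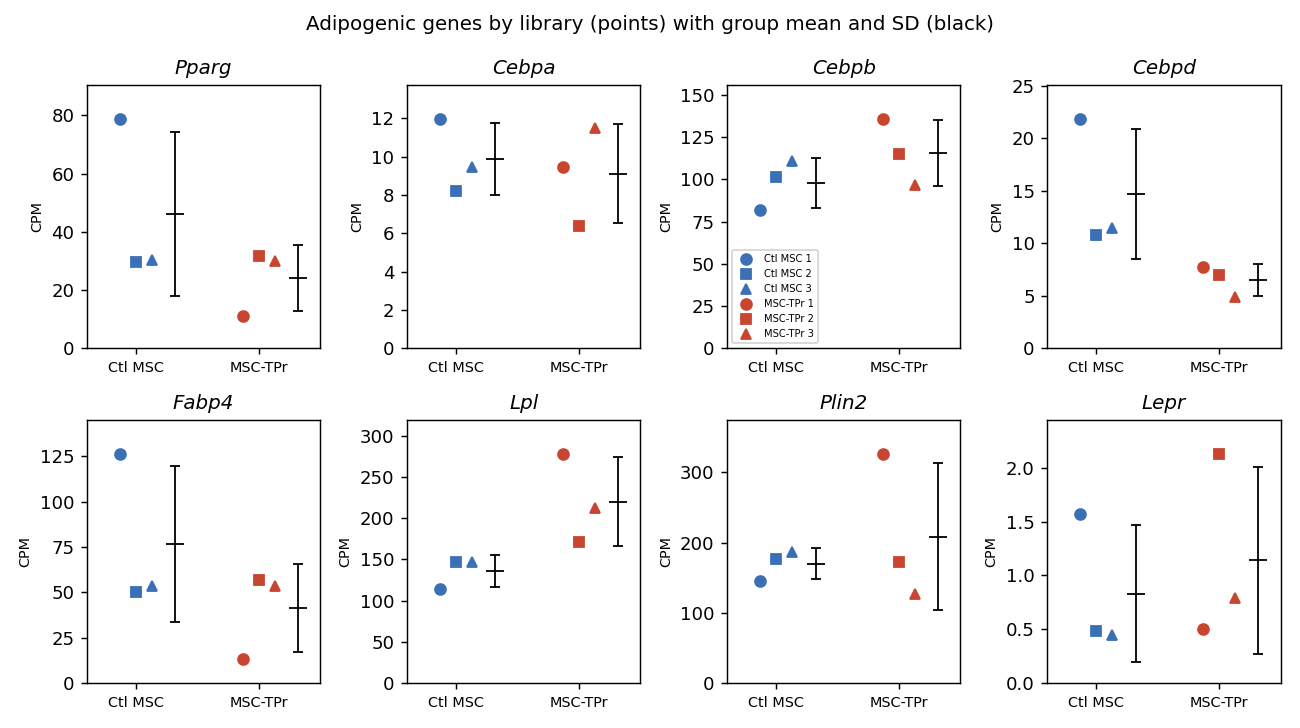
Level in CPM (vertical axes, each from 0) of the 8 members that were tested, with one point a library, Ctl MSC in blue and MSC-TPr in red, the marker giving the library number, and the group mean with its SD in black (n = 3). Cebpd and Lpl have groups that do not overlap, and Pparg and Fabp4 are highest in Ctl MSC 1 and lowest in MSC-TPr 1 with the other 4 libraries close together.

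Cebpd, which encodes C/EBPδ, a factor of the early step, was at 21.8, 10.8 and 11.5 CPM across Ctl MSC 1, 2 and 3, then 7.69, 6.98 and 4.82 CPM across MSC-TPr 1, 2 and 3. The highest MSC-TPr library lay below the lowest Ctl MSC library. The group means were 14.7 ± 6.17 and 6.50 ± 1.49 CPM (SD, n = 3 each), a log2 difference of -1.18 (SE 0.36), with an unadjusted p of 0.0142 and an adjusted p of 0.216 in edgeR's fit across all genes. The exact two-sided permutation test gave p = 0.1, the smallest that 3 against 3 allow. Without the libraries numbered 1 the difference was -0.92 (SE 0.22) and was called (edgeR adjusted p 0.0178), among 40.0% of the 12122 genes tested in that fit. The single exon of Cebpd (chr16:15887286-15891031) shares 562 bases with the gene Spidr on the opposite strand. Use of strand in counting was not stated, so reads of the overlap cannot be assigned to one or the other.

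Cebpb, C/EBPβ, the partner of Cebpd in the early step, was far more abundant. It was at 81.8, 101 and 111 CPM across Ctl MSC 1, 2 and 3, then 136, 115 and 96.4 CPM across MSC-TPr 1, 2 and 3. The extremes were the libraries numbered 1, and the groups overlapped. The log2 fold change was 0.24 (SE 0.19, edgeR adjusted p 0.608) and was -0.003 in the 4 libraries. Reads of Cebpb per read of Cebpd ran 3.75, 9.40 and 9.64 across Ctl MSC, then 17.6, 16.4 and 20 across MSC-TPr. This ratio did not overlap between labels, but neither did Cebpd alone, so it is not a separate result. Cebpb (chr2:167688915-167690418, 1 exon) shares 312 exonic bases with Tmem189 on the opposite strand.

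Pparg, the nuclear receptor PPARγ that is required for fat cell formation, was set apart by the libraries numbered 1. It was at 78.7, 29.5 and 30.4 CPM across Ctl MSC 1, 2 and 3, then 11.2, 31.6 and 29.9 CPM across MSC-TPr 1, 2 and 3. Ctl MSC 1 lay 7.04-fold above MSC-TPr 1, while the other 4 libraries lay within 29.5 to 31.6 CPM. Over all 6 the log2 fold change was -0.93 (SE 0.54, edgeR adjusted p 0.472), and over the 4 it was 0.04 (SE 0.12, edgeR adjusted p 0.792).

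Cebpa, C/EBPα, the factor that works with PPARγ in the late step, varied little. It was at 12.0, 8.22 and 9.48 CPM across Ctl MSC 1, 2 and 3, then 9.46, 6.39 and 11.5 CPM across MSC-TPr 1, 2 and 3. The groups overlapped, and 53.0% of the genes tested had a wider range across libraries. Its log2 fold change was -0.12 (SE 0.29, edgeR adjusted p 0.885), and its sign turned when 1 library was left out (0.05 without Ctl MSC 1, 0.09 without MSC-TPr 2). Cebpa (chr7:35119293-35121928, 1 exon) shares 51 bases with the antisense gene Gm45091.

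Fabp4, the fatty acid binding protein aP2 and a classical PPARγ target, had the widest range of the 8. It was at 126, 50.2 and 53.5 CPM across Ctl MSC 1, 2 and 3, then 13.2, 56.8 and 53.3 CPM across MSC-TPr 1, 2 and 3. Only 4.74% of the genes tested had a wider range than Fabp4, and 7.20% a wider range than Pparg. The order of extremes was that of Pparg, with Ctl MSC 1 at 9.59-fold the level of MSC-TPr 1. Reads of Fabp4 per read of Pparg ran 1.60, 1.70 and 1.76 across Ctl MSC, then 1.18, 1.796 and 1.79 across MSC-TPr, a ratio that moved far less than either gene. The log2 fold change was -0.90 (SE 0.61, edgeR adjusted p 0.536) over 6 libraries and 0.09 over 4.

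Lpl, lipoprotein lipase, which frees fatty acids from circulating lipoproteins, was lowest in Ctl MSC 1 and highest in MSC-TPr 1. It was at 114, 147 and 147 CPM across Ctl MSC 1, 2 and 3, then 278, 170.4 and 212 CPM across MSC-TPr 1, 2 and 3. The lowest MSC-TPr library exceeded the highest Ctl MSC library. The means were 136 ± 19.1 and 220.0 ± 54.2 CPM (SD, n = 3 each), a log2 difference of 0.69 (SE 0.22, unadjusted p 0.0186, adjusted p 0.234 in edgeR's fit across all genes). The exact permutation p was 0.1. In the 4 libraries the difference was 0.38 (SE 0.14, edgeR adjusted p 0.0686).

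Plin2, perilipin 2, which coats small lipid droplets in many cell types, had the highest level per length of the members. It was at 145, 177 and 187 CPM across Ctl MSC 1, 2 and 3, then 326, 172 and 126 CPM across MSC-TPr 1, 2 and 3. MSC-TPr 1 stood alone, and the other 5 libraries overlapped. The log2 difference of 0.30 (SE 0.35, edgeR adjusted p 0.747) turned to -0.18 without MSC-TPr 1 and to -0.29 in the 4 libraries. Per read of Pparg, Plin2 had 1.84 reads in Ctl MSC 1 and 29.2 in MSC-TPr 1, with 4.23 to 6.15 in the others.

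The remaining members were near the floor. Lepr, the leptin receptor, had 8 to 36 reads a library, or 1.57, 0.480 and 0.441 CPM across Ctl MSC 1, 2 and 3, then 0.498, 2.13 and 0.788 CPM across MSC-TPr 1, 2 and 3. The 3 libraries with the higher level of division genes (Ctl MSC 1, MSC-TPr 2 and MSC-TPr 3) held the 3 highest values. The log2 difference of 0.45 (SE 0.74, edgeR adjusted p 0.821) became -0.35 without MSC-TPr 2 and 1.61 (SE 0.58, edgeR adjusted p 0.0659) in the 4 libraries. Adipoq, the adipocyte hormone adiponectin, had 2 reads in Ctl MSC 1 and 0 in the other 5 libraries. Cd36, a fatty acid transporter, had 1, 0 and 1 reads across Ctl MSC, then 2, 0 and 0 across MSC-TPr. Neither passed the filter, both were at or under 3 reads in every library, and the exact permutation test gave p = 1.0 for each, so no difference was detectable at this depth.

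Scaled by the length of the longest coding transcript, the mean levels over the 6 libraries ran from Plin2 (100.1 CPM per kb) through Cebpb (71.0), Fabp4 (65.7), Lpl (43.3), Pparg (16.6), Cebpa (3.62), Cebpd (2.83) and Lepr (0.178) to Adipoq (0.0156) and Cd36 (0.0111). The first 4 in this order overlapped in their ranges pooled over libraries: Plin2 ran from 66.8 to 173 CPM per kb, Cebpb from 54.4 to 90.1, Fabp4 from 14.7 to 141 and Lpl from 27.7 to 67.5. Within each library, though, Plin2 lay above Cebpb and Lpl. The range of Pparg (5.26 to 37.0) lay below those of Plin2 and Cebpb and above that of Cebpa. It overlapped those of Lpl, Fabp4 and Cebpd. Within each library Fabp4 lay above Pparg, with 1.18 to 1.796 reads per read of Pparg on a shorter transcript. Lpl lay below Pparg in Ctl MSC 1 only. Cebpa (2.43 to 4.55) and Cebpd (1.29 to 5.82) overlapped each other and lay above Lepr (0.0796 to 0.384) in every library, and Adipoq and Cd36 overlapped at 0. In the GENCODE annotation of GRCm38, Pparg lies at chr6:115360951-115490399, Lpl at chr8:68880491-68907448 and Lepr at chr4:101717404-101815352 on the plus strand, and Fabp4 at chr3:10204088-10208576 and Plin2 at chr4:86648386-86670060 on the minus strand. None of these 5 shares exonic bases with another gene there.

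With the division level as a covariate, Pparg and Fabp4 were called lower in the libraries labelled MSC-TPr. The log2 fold change of Pparg became -1.35 (SE 0.12, edgeR adjusted p 0.000757) and that of Fabp4 -1.53 (SE 0.19, edgeR adjusted p 0.00365). Cebpd was at -1.22 (SE 0.30, edgeR adjusted p 0.0373) and Lpl at 0.82 (SE 0.13, edgeR adjusted p 0.00919). These 4 of the 8 members tested were called, beside 12.1% of all genes in the same fit. Cebpb (0.35, edgeR adjusted p 0.0926), Plin2 (0.43, 0.189), Cebpa (-0.16, 0.712) and Lepr (-0.01, 0.994) were not. This fit has 3 residual degrees of freedom. Pparg and Fabp4 were called in all 6 fits that left out 1 library, Lpl in 5 (edgeR adjusted p 0.0541 without MSC-TPr 1) and Cebpd in 3, with -0.53 (edgeR adjusted p 0.243) without Ctl MSC 1, 0.108 without MSC-TPr 2 and 0.0555 without MSC-TPr 3 as its adjusted p. Plin2 was called in 1 of them, without MSC-TPr 3 (0.59, edgeR adjusted p 0.0454). These fits were chosen after seeing the data. Each keeps at least 1 of the libraries numbered 1, on which the separation of label and division level rests, so they are not independent of those libraries.

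**Figure D2:**
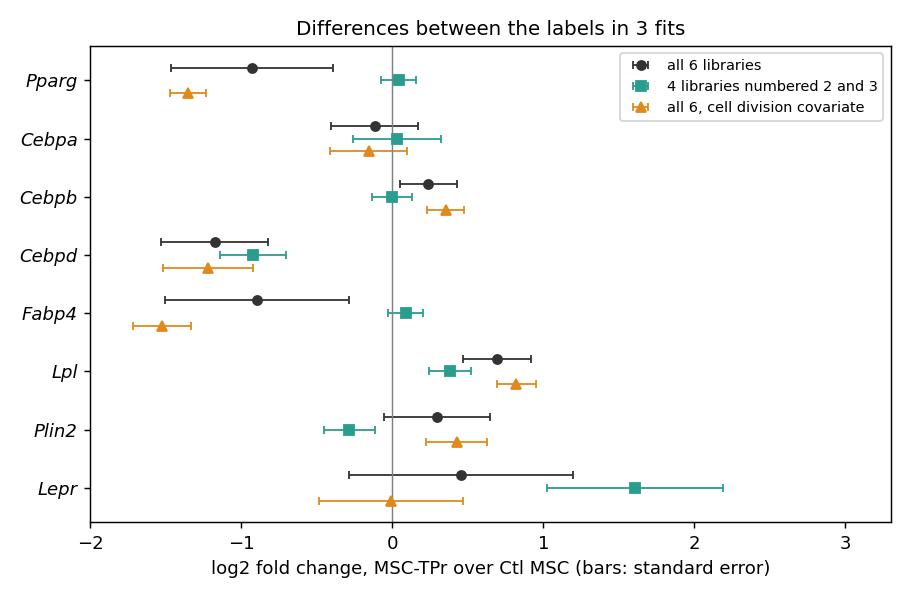
Log2 fold change of libraries labelled MSC-TPr over those labelled Ctl MSC (horizontal axis) for the 8 members tested, with bars of 1 standard error, from all 6 libraries (black circles), the 4 libraries numbered 2 and 3 (green squares) and all 6 with the division level as covariate (orange triangles). Cebpd lies below 0 and Lpl above 0 in each, while Pparg and Fabp4 lie near 0 in the 4 libraries and at -1.35 and -1.53 with the covariate.

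The same can be read from the libraries themselves, as values without a test since each level has 1 library of one label. At the lower division level Pparg was at 29.9 CPM on average in Ctl MSC 2 and 3 and at 11.2 in MSC-TPr 1, a ratio of 2.68. At the higher level it was at 78.7 CPM in Ctl MSC 1 and 30.7 on average in MSC-TPr 2 and 3, a ratio of 2.56. For Fabp4 the ratios of Ctl MSC to MSC-TPr were 3.94 and 2.29, and for Cebpd 1.45 and 3.70. Lpl was 1.89 and 1.68 times as high in MSC-TPr, and Cebpb 1.28 and 1.29 times. Plin2 was 1.79 times as high at the lower level and 1.03 times at the higher one.

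**Figure D3:**
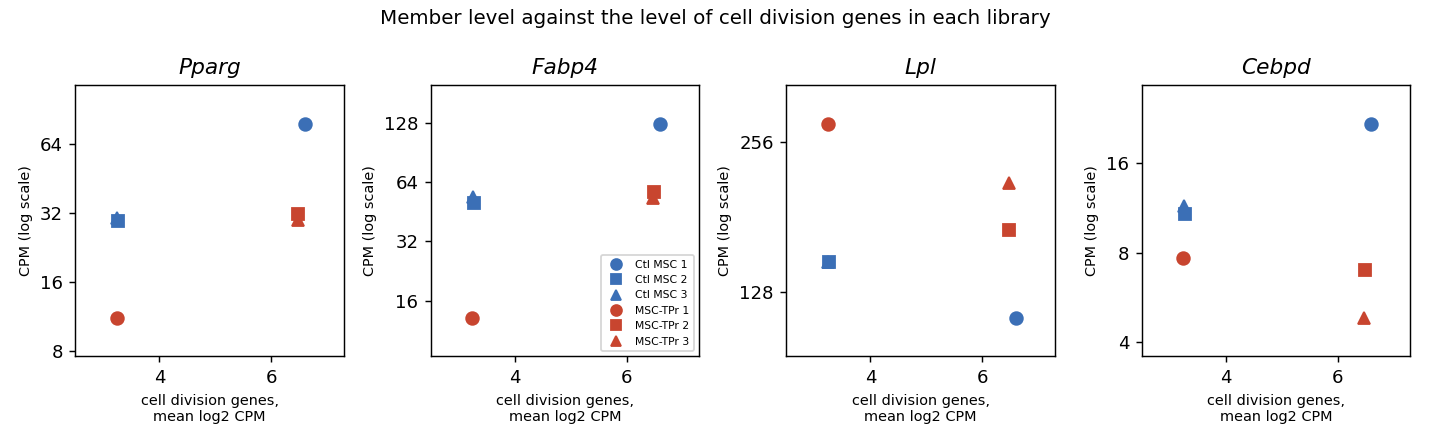
Level in CPM on a log scale (vertical axis) of Pparg, Fabp4, Lpl and Cebpd against the mean log2 CPM of the 15 cell division genes (horizontal axis), one point a library, Ctl MSC in blue and MSC-TPr in red. At each of the division levels, near 3.25 and near 6.5, the MSC-TPr points lie below the Ctl MSC points for Pparg, Fabp4 and Cebpd and above them for Lpl.

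Genes whose log2 CPM moved most like 7 of the members (all but Lepr, Adipoq and Cd36, whose mean lay under 1 log2 CPM) over the 6 libraries were found among 10821 genes by Pearson's r, which here describes 6 points that share 1 large split. Those nearest to Pparg were Ppap2a (r = 0.997), a lipid phosphate phosphatase gene, and Il18 (0.996). Those nearest to Fabp4 were Ripk3 (0.997) and Il1rl1 (0.997), the IL-33 receptor, which was at 1471, 327 and 338 CPM across Ctl MSC 1, 2 and 3, then 23.0, 430 and 301 CPM across MSC-TPr 1, 2 and 3. For Lpl they were Strn (0.993) and Nup214 (0.993), for Cebpb Klhdc2 (0.992), and for Cebpd Smim8 (0.985) and Xaf1 (0.983). For Cebpa they were Lrrc73 (0.985) and Fan1 (0.969), and for Plin2 Suz12 (0.993) and Ebag9 (0.990).

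The wider pathway was read from 8 lists written from general knowledge, which held 115 genes besides the members, 96 of them tested. Of these, 0 were called by edgeR in all 6 libraries. DESeq2 called 6, Bscl2, Cdh13, Gata2, Lipa and Runx1t1 lower and Hes1 higher. Beside these it called 244 higher and 439 lower over the 16807 genes with at least 1 count. That set includes genes that failed edgeR's filter, so the 6 calls cannot be read as particular to the wider pathway. At an unadjusted p under 0.05 in edgeR's fit 3 of the 96 were higher and 11 lower, and 5 were higher and 12 lower without overlap. These shares, 14.6% and 17.7%, lay below the 15.0% and 22.6% of all genes. Their median log2 fold change was -0.12, beside 0.01 over all genes. In the 4 libraries 16 were called higher and 28 lower (45.8%, beside 40.0% of all genes), and with the covariate 4 and 11 (15.6%, beside 12.1%). Leaving out Ctl MSC 1 gave 2 calls by edgeR, beside 3 higher and 105 lower over all genes. The share of all genes was not computed for that fit, so the 2 calls cannot be read as particular to the wider pathway. The 2 genes called were Bscl2 (-2.05, edgeR adjusted p 0.0372) and Vldlr (-1.32, edgeR adjusted p 0.0429), both lower. Vldlr, a lipoprotein receptor, is named here after its value was seen.

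Of the genes of lipid droplets and triglyceride turnover, 12 were tested, with a median of -0.22. In this list 0 were called by edgeR and 1, Bscl2, by DESeq2. Without overlap 2 were higher and 2 lower, beside 22.6% of all genes in either direction. Bscl2 had the largest difference of the list. It encodes seipin, a protein of the endoplasmic reticulum needed for normal droplet formation. Bscl2 was at 11.7, 19.6 and 19.8 CPM across Ctl MSC 1, 2 and 3, then 5.70, 4.97 and 3.62 CPM across MSC-TPr 1, 2 and 3. The means of 17.0 ± 4.61 and 4.76 ± 1.06 CPM (SD, n = 3 each) gave a log2 difference of -1.84 (SE 0.31, edgeR adjusted p 0.0774, DESeq2 adjusted p 1.872e-05), which was -2.20 in the 4 libraries (edgeR adjusted p 0.000667) and -1.63 with the covariate (edgeR adjusted p 0.0029). Pnpla2, the lipase ATGL, was at 21.0, 30.4 and 31.5 CPM across Ctl MSC 1, 2 and 3, then 65.6, 33.1 and 31.6 CPM across MSC-TPr 1, 2 and 3, with MSC-TPr 1 far above the others. Its log2 difference of 0.65 (edgeR adjusted p 0.425) was 0.066 in the 4 libraries (edgeR adjusted p 0.667), and it was called with the covariate (0.84, edgeR adjusted p 0.0106).

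Factors that favour adipogenesis (16 tested) included 2 at an unadjusted p under 0.05, both higher, beside 15.0% of all genes in either direction. Srebf1, the lipogenic factor SREBP1, lay lower in every library labelled MSC-TPr, at 93.4, 68.2 and 67.3 CPM across Ctl MSC 1, 2 and 3, then 56.7, 49.8 and 66.8 CPM across MSC-TPr 1, 2 and 3 (log2 fold change -0.40, edgeR adjusted p 0.400). Of 16 factors that hold adipogenesis back, 1 was higher and 3 lower without overlap, beside 22.6% of all genes in either direction. Hes1, a target of Notch signalling, was at 4.47 ± 1.17 and 10.7 ± 3.48 CPM (1.26, edgeR adjusted p 0.190, DESeq2 adjusted p 0.0251). Zfp521, which counters the preadipocyte factor Zfp423, was at 23.9 ± 9.33 and 9.20 ± 3.85 CPM (-1.38, edgeR adjusted p 0.235). In the 4 libraries Hes1 and Zfp521 were called, at 1.71 and -1.97 (edgeR adjusted p 0.00156 and 0.0027), and with the covariate at 0.999 and -1.03 (edgeR adjusted p 0.0218 and 0.0318). Srebf1 was not called in either fit.

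Other PPARγ targets (8 tested, median -0.17) had 0 higher and 2 lower at an unadjusted p under 0.05, beside 15.0% of all genes. Pdk4, a kinase that shuts off pyruvate dehydrogenase, was at 18.1, 32.4 and 30.3 CPM across Ctl MSC 1, 2 and 3, then 5.70, 14.0 and 13.6 CPM across MSC-TPr 1, 2 and 3 (-1.28, edgeR adjusted p 0.230). It was called in the 4 libraries (-1.18, edgeR adjusted p 0.00122) and not with the covariate (-1.36, edgeR adjusted p 0.0694). Like Pparg it was lowest in MSC-TPr 1, but unlike Pparg it was lower in MSC-TPr 2 and 3 than in Ctl MSC 2 and 3. Among fatty acid uptake and synthesis genes (16 tested, median -0.01) Lipa, the lysosomal acid lipase, was at 122 ± 10.3 and 75.1 ± 11.04 CPM (-0.70, edgeR adjusted p 0.151, DESeq2 adjusted p 0.0252). It was called in the 4 libraries (-0.87, edgeR adjusted p 0.00428) and with the covariate (-0.63, edgeR adjusted p 0.0196).

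Of adipokines and their receptors (10 tested, median -0.12), Cdh13, the T-cadherin that binds adiponectin, was at 21.9, 7.47 and 8.16 CPM across Ctl MSC 1, 2 and 3, then 2.05, 3.61 and 4.96 CPM across MSC-TPr 1, 2 and 3. Its groups did not overlap, and its log2 fold change was -1.82 (SE 0.54, edgeR adjusted p 0.214, DESeq2 adjusted p 0.0271). It was called at less than this size in the 4 libraries (-0.85, edgeR adjusted p 0.0228) and at -2.14 with the covariate (edgeR adjusted p 0.00135). Leprot, whose protein limits leptin receptor at the cell surface, was at 57.5 ± 6.59 and 42.6 ± 0.163 CPM (-0.43, edgeR adjusted p 0.250). It was called in neither other fit. Glucocorticoid response genes (7 tested, median 0.02) had 0 at an unadjusted p under 0.05, and Mt2, a metallothionein, was at 78.8 ± 25.0 and 37.1 ± 19.5 CPM without overlap (-1.09, edgeR adjusted p 0.338), and it was called in neither other fit. Of genes known from leptin receptor-positive marrow stroma, 11 were tested. At an unadjusted p under 0.05, 2 were lower, beside 15.0% of all genes in either direction. The 11 had a median of -0.59 over 6 libraries, -0.19 over the 4 and -0.45 with the covariate. Of these Grem1, a BMP antagonist, was at 34.2 ± 9.79 and 18.1 ± 4.97 CPM (-0.92, edgeR adjusted p 0.242), and it was called with the covariate (-0.97, edgeR adjusted p 0.0455) and not in the 4 libraries (-0.73, edgeR adjusted p 0.0608).

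**Figure D4:**
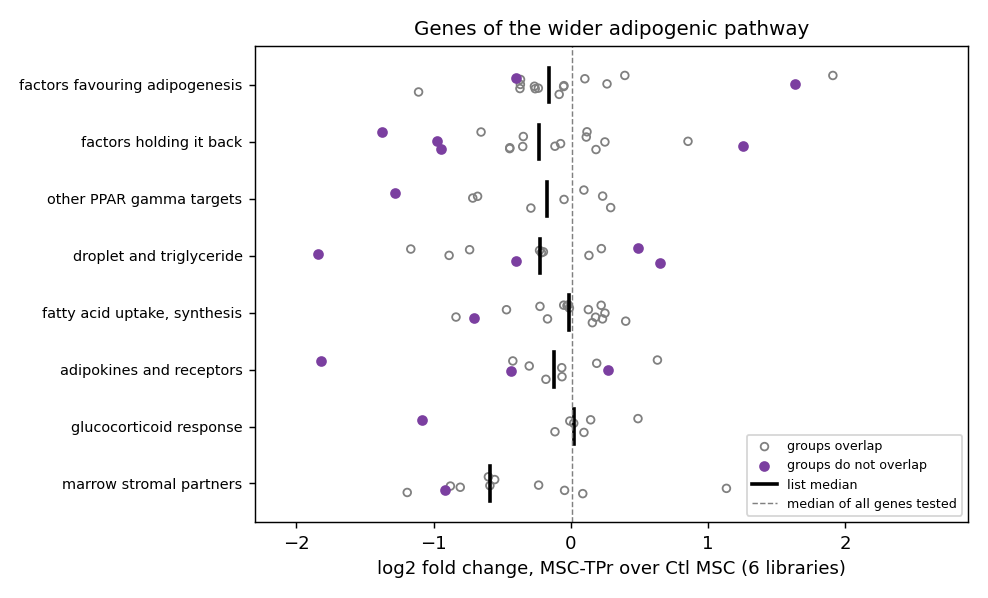
Log2 fold change of libraries labelled MSC-TPr over those labelled Ctl MSC in all 6 libraries (horizontal axis) for the genes tested in 8 lists of the wider pathway (rows), filled where the groups do not overlap, with each list's median as a black bar and the median of all genes tested as a dashed line. Medians lie from -0.59 for the marrow stromal partners to 0.02 for the glucocorticoid response, and the filled points number 5 above 0 and 12 below.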

How the data were processed

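Counts were analysed for 6 libraries, 3 for each label. The authors prepared stranded polyA libraries, aligned the reads to mm10, counted them per gene with htseq-count and deposited the raw counts; the submitters' processing notes name CASAVA 1.8.2, Trimmomatic 0.35 and TopHat2 2.1.0. The 5 summary rows of the table were left out, which left 79.2% to 86.2% of the reads on genes. In R 4.3.3, edgeR 4.0.16 was run over all genes (filterByExpr, TMM, quasi-likelihood test, label only), and CPM used the TMM-scaled library sizes. DESeq2 1.42.0 was an alternative. The covariate was the mean log2 CPM (prior count 2) of 15 cell division genes. Permutation tests were exact and two-sided on log2(CPM + 0.5). Standard errors follow from the log2 fold change and F. The edgeR, DESeq2 and overlap steps were tested on simulated counts. Symbols were placed with the GENCODE annotation of GRCm38. The members and lists were chosen with earlier results of these data known. From each list the text names up to 2 genes, taken by size of change among those without overlap between groups whose mean log2 CPM reached 1. One gene near a member in pattern is not reported here.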

Additional observations from a re-analysis of the deposited data

How the results depend on the processing

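Over all genes, edgeR called 3 higher and 48 lower with 6 libraries. The counts became 244 and 439 with DESeq2, 573 and 878 with the cell division covariate and 2498 and 2356 in the 4 libraries numbered 2 and 3. They were 0 and 0 with the replicate block, 0 and 0 with a GC content correction and the replicate block, and 6 higher with the GC correction alone. A minimum of 10 reads in every library left 29 lower. Leaving out each library in turn gave 0 to 11 higher and 0 to 105 lower. Members called went from 0 to 1 in the 4 libraries and 4 with the covariate, and members without overlap from 2 to 4 in the 4 libraries. Calls among the genes of the wider pathway went from 0 to 44, 6 and 15 in the 4 libraries, DESeq2 and the covariate, with 0 to 2 when a library was left out, and genes without overlap from 17 to 78 in the 4 libraries. The cause of these moves was not tested. The share of all genes without overlap in the 4 libraries was not computed. The rises without overlap therefore cannot be read as particular to the members or the wider pathway.

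Signs turned as follows. In the 4 libraries Pparg was at 0.041, Fabp4 at 0.088, Cebpa at 0.028, Cebpb at -0.0027 and Plin2 at -0.29. Lepr was at -0.0078 with the covariate. With 1 library left out, Cebpa ran from -0.31 to 0.090, Plin2 from -0.18 to 0.56 and Lepr from -0.35 to 1.28, and with the covariate as well Cebpa ran from -0.39 to 0.10 and Lepr from -0.47 to 0.35. That last set of fits was chosen after seeing the data. Cebpd stayed below 0 (-1.36 to -0.77) and Lpl above 0 (0.49 to 0.85) when any 1 library was left out.

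The replicate numbers did not pair the libraries: deviations from the group means of same-numbered libraries correlated at -0.76, -0.59 and -0.60, and Ctl MSC 1 correlated best with MSC-TPr 3 (0.63). The replicate block called no member, with Cebpd at -1.13 (edgeR adjusted p 0.672), Lpl at 0.67 (0.801), Pparg at -0.84 (0.880) and Fabp4 at -0.92 (0.880). Depth limits what can be read from Lepr (8 to 36 reads), Adipoq and Cd36 (0 to 2 reads).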

Other observations

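Several genes of the wider pathway fell outside the rule for named genes and are given here after their values were seen. Zfp423, a factor that commits cells to the preadipocyte state, was scarce but higher in every library labelled MSC-TPr, at 0.181, 0.320 and 0.276 CPM in Ctl MSC 1, 2 and 3 and at 0.719, 0.769 and 0.974 CPM in MSC-TPr 1, 2 and 3. The log2 difference was 1.63 (SE 0.42, edgeR adjusted p 0.180), in the opposite direction to that of its antagonist Zfp521. The Zfp423 value in Ctl MSC 1 corresponds to 3 reads, the smallest number taken here as a signal. Of 16 factors that hold adipogenesis back, 3 were lower without overlap and 1, Hes1, was higher, beside 22.6% of all genes. The list median with the covariate was 0.03. Besides Zfp521 the lower ones were Runx1t1 and Gata2. Runx1t1, a corepressor, was at 39.1, 49.3 and 47.5 CPM against 24.1, 18.4 and 26.5 CPM (log2 fold change -0.98, SE 0.20, edgeR adjusted p 0.115, DESeq2 adjusted p 0.00329). Gata2, a factor kept high in preadipocytes, was at 6.28, 7.90 and 6.84 CPM against 4.04, 2.96 and 3.89 CPM (-0.95, SE 0.25, edgeR adjusted p 0.180, DESeq2 adjusted p 0.0252). With the division level as covariate Zfp423, Runx1t1 and Gata2 were at 1.64, -0.90 and -0.87 (edgeR adjusted p 0.0492, 0.015 and 0.0375).

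Cxcl12, the chemokine by which leptin receptor-bearing marrow stroma holds blood stem cells, had the pattern of Pparg and Fabp4. It was at 1408, 336 and 331 CPM in Ctl MSC 1, 2 and 3 and at 67.8, 352 and 488 CPM in MSC-TPr 1, 2 and 3, with a log2 difference of -1.19 (SE 0.85, edgeR adjusted p 0.554). At the lower level of division genes Ctl MSC lay 4.92-fold above MSC-TPr, and at the higher level 3.35-fold, and with the covariate the log2 fold change was -1.97 (edgeR adjusted p 0.00147).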
